A study of Schizosaccharomyces pombe with 16 samples.

Results

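The ends of chromosomes I and II of the fission yeast Schizosaccharomyces pombe hold protein-coding genes that were followed here across 4 carbon conditions and in scr1 mutants. A gene was taken when the whole of it lay within 60 kb of an end of either chromosome in the coordinates of the count table (genome build ASM294v2). Of 83 such genes, 6 were left out by the rule, namely the galactose genes gal1, gal7 and gal10, the hexose transporter gene ght7 and the flocculin genes pfl6 and pfl9. The remaining 77 genes are 77 of 7019 counted features and of 5172 protein-coding ones. The left and right arms of chromosome I hold 25 and 17 of them, and those of chromosome II hold 19 and 16. RefSeq lists 10 of the 77 as pseudogenes and gives a symbol to 20. A total of 65 genes passed the filter on low counts and were tested, and the other 12 had too few reads.

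RNA sequencing of rRNA-depleted total RNA was performed on 16 libraries, 2 for each of 8 combinations of strain and medium. Cells grown in rich medium (YES) with 3% glucose at 32 degrees were washed and shifted to YES with 3% glucose, 3% sucrose, a glucose-deficient mix (0.1% glucose and 3% glycerol) or glycerol alone at 3% (glucose-starved). Wild type cells (labelled Y44, h-) were taken in all 4 media. Cells lacking the repressor gene scr1 were taken in glucose and sucrose, either as a disruption (labelled D59, scr1::ura4+, with ura4-d18, leu1-32 and ade6-m216) or as a deletion (scr1::kanMX6+, D163 as replicate 1 and D165 as replicate 2). The disruption libraries thus carry nutritional markers that the wild type label lacks. The strain list of the study disagrees with the labels: it names another wild type strain, of the opposite mating type, for the stranded glucose and sucrose libraries and for the glucose-starved library of the same batch. It also names a different disruption strain for the stranded disruption libraries, and it gives the 2 deletion strains opposite mating types. The study describes the 2 libraries of each strain and condition as independent biological replicates.

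Subtelomeres are the stretches next to the telomere repeats. In fission yeast they are packed in heterochromatin marked by methylated histone H3 that is laid down by Clr4 and bound by Swi6 and Chp2, and beyond it lies a condensed region that depends on Set2 and Sgo2. Genes there are mostly held at low levels and many respond to nutrient limitation. The families found there are known as duplicated sets that recombine between arms, so that one arm's copy can replace another's.

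The duplication is visible in the sequence. A median of 90.4% of the 50-base stretches of a subtelomeric gene occurred a second time in the RefSeq genome (ASM294v3), and for 58 of the 77 genes more than 50% of the stretches were shared. The genes fell into 43 groups of copies, of which 18 had 2 or more members and together held 52 genes. The largest group had 5 members, all of the DUF999 family of proteins of unknown function. Reads that mapped to several places were counted at each of them, so the copies of one group share reads and their values are not independent. A set of 18 genes with less than 20% shared stretches gives values free of most of this sharing, and 14 of the 18 were tested.

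The coding windows printed here show how little separates such copies. They are RefSeq sequence (ASM294v3), read 5′ to 3′ on the coding strand. Capitals mark letters that differ from the first sequence of each set. The first set is a 60-base window from coding position 654 to 713 of 3 long genes of the 5Tm family, which encode proteins with predicted transmembrane helices. The window of ftm4 lies on chromosome I from 5566528 to 5566587, that of ftm5 on chromosome II from 8633 to 8692, and that of SPBPB2B2.19c on chromosome II from 4504232 to 4504291.
ftm4: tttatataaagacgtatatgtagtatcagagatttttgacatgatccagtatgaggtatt
ftm5: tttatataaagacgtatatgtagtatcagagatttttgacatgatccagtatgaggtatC
SPBPB2B2.19c: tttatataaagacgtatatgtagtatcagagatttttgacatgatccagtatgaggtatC
Over the coding sequence, ftm5 and SPBPB2B2.19c, at opposite ends of chromosome II, were identical at 1035 of 1035 bases, and ftm4 was identical to each at 1032.

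The second set holds the first 60 coding bases of the fluoride export channel genes fex1 (chromosome I from 55274 to 55333) and fex2 (chromosome II from 56726 to 56785). The copies were identical at 935 of 936 coding bases.
fex1: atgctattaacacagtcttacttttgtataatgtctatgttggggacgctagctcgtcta
fex2: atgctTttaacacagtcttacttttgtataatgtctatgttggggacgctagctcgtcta
The third set holds the first 60 coding bases of 3 L-asparaginase genes, enzymes that release ammonium from asparagine, and is shown because 2 of them fell and the other rose in the glucose-starved condition. SPAC977.12 lies on chromosome I from 56492 to 56551 in this window, SPBPB8B6.05c on chromosome II from 55508 to 55567, and SPAC186.03 on chromosome I from 5535198 to 5535257.
SPAC977.12: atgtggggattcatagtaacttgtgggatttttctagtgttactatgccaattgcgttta
SPBPB8B6.05c: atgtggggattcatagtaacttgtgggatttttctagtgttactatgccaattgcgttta
SPAC186.03: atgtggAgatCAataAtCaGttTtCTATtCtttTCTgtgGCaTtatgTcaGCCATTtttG
SPAC977.12 and SPBPB8B6.05c were identical at 1058 of 1071 coding bases. SPAC186.03 differed from SPAC977.12 at 26 of the 60 letters, and their coding sequences were identical at 774 of 1089 aligned positions. Of its own 50-base stretches, 62.0% also lie in another L-asparaginase gene outside the windows, SPBPB21E7.09.

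The libraries held 14305848 to 18607823 counted reads, and subtelomeric genes took 0.119% to 0.345% of them. The highest shares, 0.345% and 0.303%, were those of the glucose-starved libraries. Levels are given as CPM, reads of a gene per unit of library size, scaled by the trimmed mean of M values (TMM), and a count of 3 reads corresponds to 0.145 to 0.263 CPM. The libraries came in 3 batches, labelled A to C here, as the study's sample list gives them: A (5 libraries, unstranded), B (5, stranded) and C (6, stranded). Wild type glucose, sucrose and scr1::ura4+ libraries come 1 each from A and B, glucose-deficient from A and C, glucose-starved from B and C, and all 4 scr1 deletion libraries from C. The scr1 gene gave 88.8 to 125 CPM in the 8 libraries labelled scr1 mutant against 20.8 to 35.7 CPM in the 4 wild type glucose and sucrose libraries. Counts of scr1 thus do not show its loss, and summed counts per gene do not show which part of it the reads cover. Mutant libraries are therefore named by their labels.

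Subtelomeric genes were among the weakly transcribed ones. In wild type glucose the median level per length was 1.24 CPM per kb, against 27.8 CPM per kb for the 5089 protein-coding genes outside the windows. A level below 1 CPM per kb was found for 31 of the 77 genes (40.3%) and for 1.41% of the other protein-coding genes. The median was 1.33 CPM per kb in sucrose and 1.37 in the glucose-deficient condition, and it was 6.33 CPM per kb in the glucose-starved condition. The level per length varied widely within the set. In glucose the highest was 182 CPM per kb, for the L-asparaginase gene SPBPB8B6.05c, and the lowest was 0.0434 CPM per kb.

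**Figure D1:**
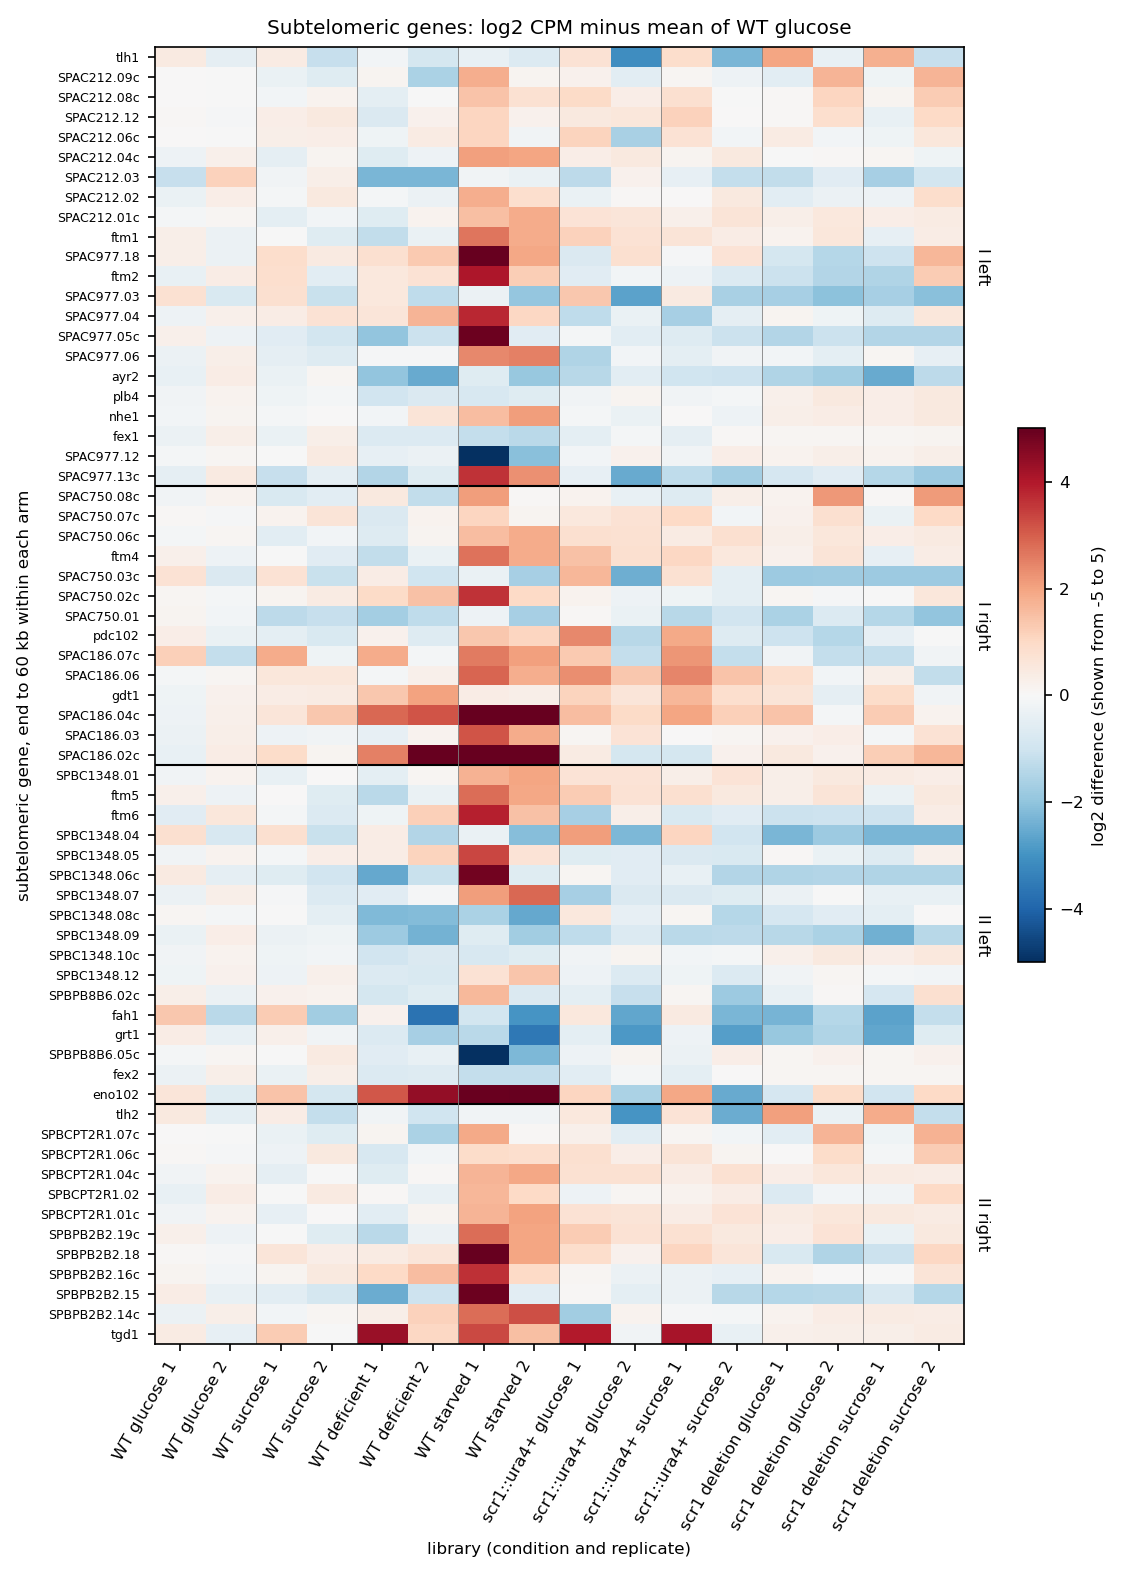
Log2 CPM of the 65 tested subtelomeric genes (rows, by arm and distance from the chromosome end) in the 16 libraries (columns), minus the mean of the 2 wild type glucose libraries; colours run from -5 to 5 on the log2 scale. The glucose-starved columns stand out in red, and within them replicate 1 is darker than replicate 2 for several copies.

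Most of the tested subtelomeric genes were higher without glucose. Between the glucose-starved and glucose conditions, 36 of 65 were higher (55.4%) and 5 were lower (7.69%) by edgeR's quasi-likelihood test (adjusted p under 0.05 over all features and a log2 fold change past 1). The background rates among all 6691 tested features were 20.7% higher and 20% lower. The median log2 fold change was 1.59 for the subtelomeric genes and -0.02 for all tested features. Among the 14 tested genes with little shared sequence 9 were higher and none was lower, and among the other 51 the counts were 27 and 5. With each group of copies taken once, a choice made after the data were seen, 20 of 37 groups were higher and 3 were lower. Both starved libraries lay above both glucose libraries in 41 of the 65 tested genes, a pattern seen in 29.97% of all tested features.

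The largest rise was that of SPAC186.02c on the right arm of chromosome I, annotated as a hydroxyacid dehydrogenase, an oxidoreductase of small organic acids. Its level was 0.0483 and 0.172 CPM in glucose, 1.18 and 22.8 CPM with little glucose, and 279.7 and 1333 CPM with none. The 3 conditions did not overlap, and each step from more to less glucose went up. The glucose libraries together held 4 reads of it, so the ratio of pooled starved to pooled glucose CPM, 7019, has an exact 95% counting interval of 2741 to 25763, which covers counting error alone. The fitted log2 fold change was 10.67 (SE 0.63, adjusted p = 2.23e-07 by edgeR).

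SPAC186.04c, annotated as uncharacterized and listed here with the transporters, had 0.918 and 1.38 CPM in glucose, 9.08 and 11 CPM when glucose-deficient and 115 and 40.2 CPM when glucose-starved. Its 3 conditions were again separate. The fitted log2 fold change was 6.23 (SE 0.66, adjusted p = 8.44e-06 by edgeR). The enolase gene eno102, whose product belongs to lower glycolysis and gluconeogenesis, had 9.9 and 4.3 CPM in glucose, 57.5 and 140 CPM when deficient and 202 and 268 CPM when starved. It rose by 5.59 on the log2 scale (SE 0.98, adjusted p = 3.8e-04 by edgeR). It overlaps a noncoding RNA on the other strand, and the unstranded libraries cannot tell those reads apart. The second hydroxyacid dehydrogenase gene, SPAC186.07c, and pdc102, a pyruvate decarboxylase gene, also rose (5.09 and 3.05), at levels of 1.61 CPM or less in every wild type glucose and starved library. SPAC186.07c had 11 and 0 reads in glucose and 24 and 12 when starved. It too overlaps a noncoding RNA on the other strand, and its 11 glucose reads came from the unstranded library. The reads of pdc102 were 11 and 5 in glucose and 18 and 11 when starved, so both rises rest on few reads.

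**Figure D2:**
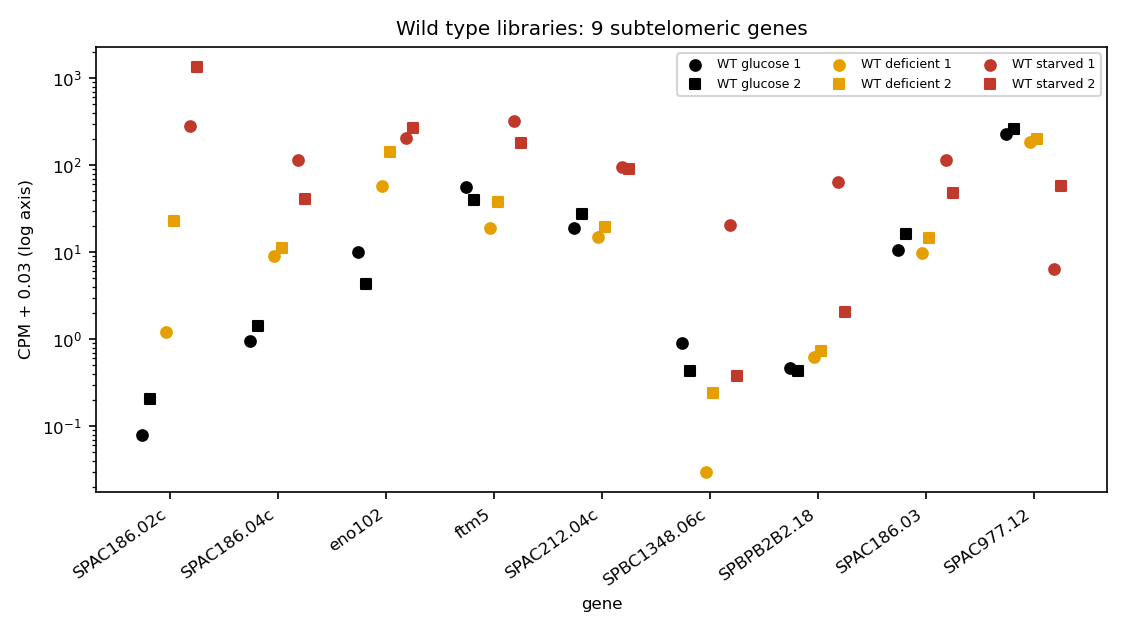
CPM on a log axis (0.03 was added so that zeros can be drawn) for 9 subtelomeric genes in the wild type glucose, glucose-deficient and glucose-starved libraries; circles are replicate 1 and squares replicate 2. SPAC186.02c climbs from 0.0483 and 0.172 to 279.7 and 1333 CPM, while SPAC977.12 falls from 230.1 and 260.0 to 6.3 and 56.7 CPM.

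The families differed in how many of their genes were called. All 9 tested members of the DUF999 family were higher in starved cells, with log2 fold changes from 1.59 to 2.70 and a median of 1.79. SPAC212.04c had 18.9 and 27.4 CPM in glucose against 94.6 and 89.2 CPM in starved cells (2.0201, SE 0.20, adjusted p = 5.47e-06 by edgeR). The members at a lower level rose too: SPBPB2B2.14c had 0.531 and 0.86 CPM in glucose, against 5.5 and 7.45 CPM in starved cells. In all 9 genes both starved libraries lay above both glucose libraries, a pattern seen in 29.97% of all tested features. The 9 are not independent, since 5 of them form 1 group of copies and 3 form another, and copies share reads.

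The 5Tm family has long members (ftm1, ftm4, ftm5 and SPBPB2B2.19c) and short ones (ftm2, ftm3, ftm6 and ftm7), and 6 of the 8 genes were tested, all of which were higher in starved cells. The long gene ftm5 had 56.1 and 39.9 CPM in glucose, 18.7 and 37.9 CPM when glucose-deficient and 325 and 180 CPM when starved. The log2 fold change was 2.62 (SE 0.44, adjusted p = 2.9e-04 by edgeR), and the 4 long genes ranged from 2.55 to 2.66. The short gene ftm2 had 0.29 and 0.574 CPM in glucose against 8.85 and 1.14 CPM in starved cells (3.54, SE 1.03, adjusted p = 0.0102). The gap between the starved libraries was wider for the short genes than for the long ones.

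The 3 genes with a Vel1p domain, a fungal family of unknown function, lie on the left arms of both chromosomes and the right arm of chromosome II. SPBC1348.06c had 0.869 and 0.401 CPM in glucose, 0 and 0.21 CPM when deficient, and 20.2 and 0.351 CPM when starved. The starved libraries therefore lay on both sides of the glucose ones. The log2 fold changes of the 3 copies were 4.34 to 4.43 and passed the test. Without starved replicate 1 they were -0.0078, 0.08 and -0.09, and none was called.

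Of the carriers and channels, 10 were tested, 6 were higher and 2 were lower in starved cells. The 4 copies of a transporter gene of the major facilitator type (SPAC977.04, SPAC750.02c, SPBC1348.05 and SPBPB2B2.16c) rose by 2.36 to 2.83. SPAC750.02c had 1.30 and 1.15 CPM in glucose against 16.3 and 2.54 CPM in starved cells, so most of that rise came from 1 library. The 4 copies share reads, and none of them was called without starved replicate 1. The sodium and proton exchanger gene nhe1, which has a noncoding RNA on the other strand, went from 105.8 and 131 CPM to 339 and 503 CPM (1.52, SE 0.16, adjusted p = 9.05e-06 by edgeR). The fluoride channels fell: fex1 had 85.1 and 128.9 CPM in glucose, against 45.2 and 41.5 CPM in starved cells (-1.51, SE 0.16, adjusted p = 7.48e-06), and fex2 had a log2 fold change of -1.43.

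The L-asparaginase genes went in opposite directions. SPAC977.12 had 230.1 and 260.0 CPM in glucose, 182 and 200.2 CPM when deficient and 6.3 and 56.7 CPM when starved. SPBPB8B6.05c, its near-identical copy, had 212.5 and 247 CPM in glucose, against 5.63 and 48.3 CPM when starved. The log2 fold changes were -3.44 (SE 0.66, adjusted p = 7.3e-04) and -3.57 (SE 0.65, adjusted p = 5.1e-04) by edgeR. SPAC186.03 had 10.4 and 16 CPM in glucose against 115 and 47.5 CPM in starved cells (2.49, SE 0.37, adjusted p = 1.0e-04 by edgeR). In neither direction did the starved and glucose libraries overlap. SPBPB21E7.09, the gene outside the windows that holds 62.0% of the SPAC186.03 stretches, was also higher in starved cells (1.28). Reads that fit both genes were counted for both.

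Values of other genes follow. Among the largest rises were SPBPB2B2.18 and SPAC977.18, 2 short uncharacterized genes that lie opposite 5Tm genes and had log2 fold changes of 6.29 and 6.20. SPAC977.18 had 1.21 and 0.746 CPM in glucose, against 207 and 3.94 CPM in starved cells, so that 1 starved library carried most of the signal. The nucleotide-sugar dehydratase gene tgd1, which overlaps gal7 and gal10 on the other strand, rose by 4.19 (SE 0.80), and its highest value, 87.2 CPM, was in an unstranded glucose-deficient library. The telomere-linked RecQ helicase genes tlh1 and tlh2, whose transcripts are commonly read as a mark of lost telomeric silencing, had 3.04 and 1.55, and 3.53 and 1.78 CPM in glucose. They had 1.68 and 1.31, and 2.21 and 2.191 CPM in starved cells, with log2 fold changes of -0.37 (SE 1.23) and -0.13 (SE 1.21) that did not pass the test. The 3 genes for GPI-anchored proteins, which sit at the cell surface, had log2 fold changes of 0.81 to 1.22 that did not pass the test. The phospholipase gene plb4 was lower at 38 and 43.9 CPM than in glucose at 59.2 and 73.8 CPM (-0.93, SE 0.14, adjusted p = 1.45e-04), short of the fold change limit, and its copy SPBC1348.10c gave -0.94.

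The 2 glucose-starved libraries differed more at the subtelomeres than elsewhere. A log2 gap above 2 between them was found for 18 of 65 subtelomeric genes (27.7%) and for 2.21% of 5063 other tested protein-coding genes. Replicate 1 was the higher library in 15 of the 18. The 18 hold copies that share reads, such as the Vel1p genes, the 4 transporter copies and the L-asparaginase genes SPAC977.12 and SPBPB8B6.05c. Subtelomeric genes were also at lower levels than the others, and the part of low counts in these gaps was not tested. The median gap was 0.99 against 0.44 on the log2 scale. Of the 36 genes that rose, 24 were still called with either starved library left out. The other 12 were lost without replicate 1, among them the Vel1p genes, the 4 transporter copies, ftm2, ftm6 and SPAC977.18, and none was lost without replicate 2. The lower calls numbered 8 without starved replicate 1, against 5 with it. The libraries belong to batches B and C and, by the study's list, to different wild type strains, so batch, strain and culture cannot be told apart. Within batch B, the median difference of starved replicate 1 from glucose replicate 2 was 1.56 on the log2 scale over the 65 tested genes and -0.16 over other protein-coding genes. Batch C holds no wild type glucose library.

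**Figure D3:**
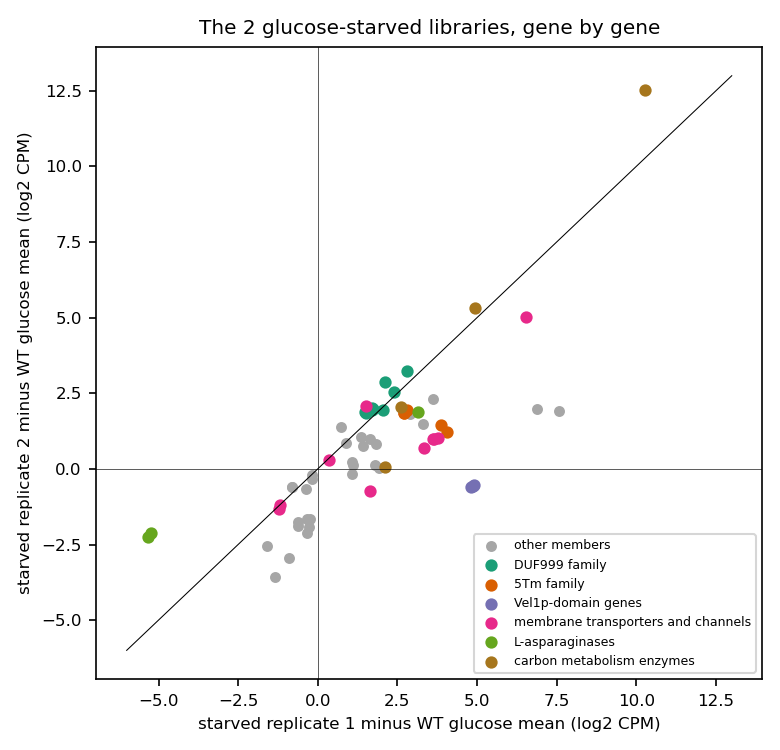
Each point is a tested subtelomeric gene: the difference from the wild type glucose mean in starved replicate 1 (x axis) and replicate 2 (y axis), in log2 CPM, with the line of equality. DUF999 genes lie near the line, and the 3 Vel1p-domain genes, with about 20 CPM in replicate 1 and 0.351 CPM in replicate 2, lie far below it.

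With a small amount of glucose left, few subtelomeric genes were called. In the glucose-deficient condition 5 of 65 genes were higher (7.69%) and 4 were lower (6.15%), against 3.87% and 3.71% of all tested features, and the median log2 fold change was -0.24 against -0.03. The 5 genes that rose were SPAC186.02c (4.53), SPAC186.04c (3.57), eno102 (3.35), tgd1 (3.10) and gdt1 (1.94), all of them among the genes with little shared sequence. Of these, 4 also rose in starved cells. The exception was gdt1, related to transporters of divalent metal ions, which had 43 and 59.2 CPM in glucose, 129.2 and 205.3 CPM when deficient and 65 and 61.3 CPM when starved. The deficient libraries lay above all 4 others, and gdt1 was lower in starved than in deficient cells by the test (-1.40). The genes that fell were ayr2, a dehydrogenase gene, with its copy SPBC1348.09, the glycoprotein gene SPBC1348.08c, and SPAC212.03. SPBC1348.08c had 2.85 and 2.47 CPM in glucose, against 0.484 and 0.489 CPM when deficient. Most of its sequence stretches (84.1%) also lie in the flocculin gene pfl6, which the rule left out. Reads that fit both genes were counted for both, and the part of pfl6 reads in this fall was not tested. In starved cells both genes were called lower than in glucose, with log2 fold changes of -1.83 for SPBC1348.08c and -1.91 for pfl6. SPAC212.03 had 3 and 21 reads in the glucose libraries and 0 in both deficient ones, so its call rests on few reads. These counts changed with the setting. With no term for batch 2 genes were higher and 1 was lower, with stranded libraries alone 1 was higher and 5 were lower, and with wild type libraries alone 2 were higher and none was lower.

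The starved condition also stood apart from the deficient one. Between these conditions 33 of 65 genes were higher (50.8%) and 3 were lower (4.62%), against 19.6% and 16.3% of all tested features. All 9 DUF999 genes, the 4 long 5Tm genes and the 3 Vel1p genes were among those higher. The Vel1p gene SPAC977.05c had 308 and 4 reads when starved and 1 and 3 when deficient. Most of its rise thus came from 1 library, and its copies share these reads. The DNA-binding protein gene SPBC1348.12 had 3.33 and 3.14 CPM when deficient and 9.25 and 14.4 CPM when starved, a log2 difference of 1.85. The 3 genes that were lower were gdt1 and the L-asparaginase copies SPAC977.12 (-2.85) and SPBPB8B6.05c (-2.90). The comparison shares its starved libraries with the one against glucose. Within batch C the median log2 difference was 0.78 over the 65 tested genes and -0.07 over other protein-coding genes. With stranded libraries alone 20 genes were higher.

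Replacing glucose with sucrose changed no subtelomeric gene by the test. Of 65 genes none was called by edgeR or by DESeq2, and 1, the aldo/keto reductase gene SPAC750.01, had an unadjusted p under 0.05. It had 172 and 143 CPM in glucose, against 64 and 71.1 CPM in sucrose. The background rate was 0.0149%, which is 1 of 6691 features. The median log2 fold change was -0.15 for the subtelomeric genes and 0.00397 for all features.

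The libraries labelled scr1 mutant showed no called subtelomeric gene in either medium. In glucose 0 of 65 genes passed by edgeR (1 by DESeq2, 15 at an unadjusted p under 0.05), and in sucrose 0 passed by both tools (12 unadjusted). The background rates of edgeR calls were 1.84% and 1.57%. The share of all features with an unadjusted p under 0.05 is not given, so the unadjusted counts have no background. The difference between the 2 mutant effects gave 0 calls by either tool and 0 unadjusted, against a background of 0.0149%. The lowest adjusted p-values were 0.133 in glucose and 0.0847 in sucrose, both for the DUF999 gene SPBCPT2R1.04c, with log2 differences of 0.63 (SE 0.20) and 0.73 (SE 0.20). The galactose-linked gene tgd1 had a log2 difference of 2.27 (SE 0.75, adjusted p = 0.157 by edgeR) in glucose. It had 68.3 CPM in the unstranded scr1::ura4+ library and 3.74 to 5.35 CPM in the 3 stranded mutant libraries. SPAC186.02c, the gene with the largest rise in starved cells, had 0 to 0.197 CPM in the 4 mutant libraries on glucose.

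A few genes, picked after their values had been seen, had unlike levels among the mutant libraries, with no call by the test of strain given after them. For the scr1 deletion, tlh1 had 8.98 CPM in glucose and 7.74 CPM in sucrose in strain D163, against 1.67 and 0.914 CPM in strain D165. The copy tlh2, on the right arm of chromosome II, had 10.8 and 9.41 CPM against 1.94 and 1.044 CPM. In the stranded scr1::ura4+ libraries tlh1 was at 0.144 and 0.351 CPM (2 and 5 reads), near the level of 3 reads. The unstranded scr1::ura4+ libraries held 63 reads of it in glucose and 76 in sucrose. The malic enzyme gene SPAC750.08c and its copies SPAC212.09c and SPBCPT2R1.07c had the opposite order. They had 2.61 to 3.98 CPM in D165 and 0.534 to 0.934 CPM in D163. RefSeq lists SPAC212.09c and SPBCPT2R1.07c as pseudogenes, and the 3 copies share reads. The order of the 2 strains was the same in both media.

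**Figure D4:**
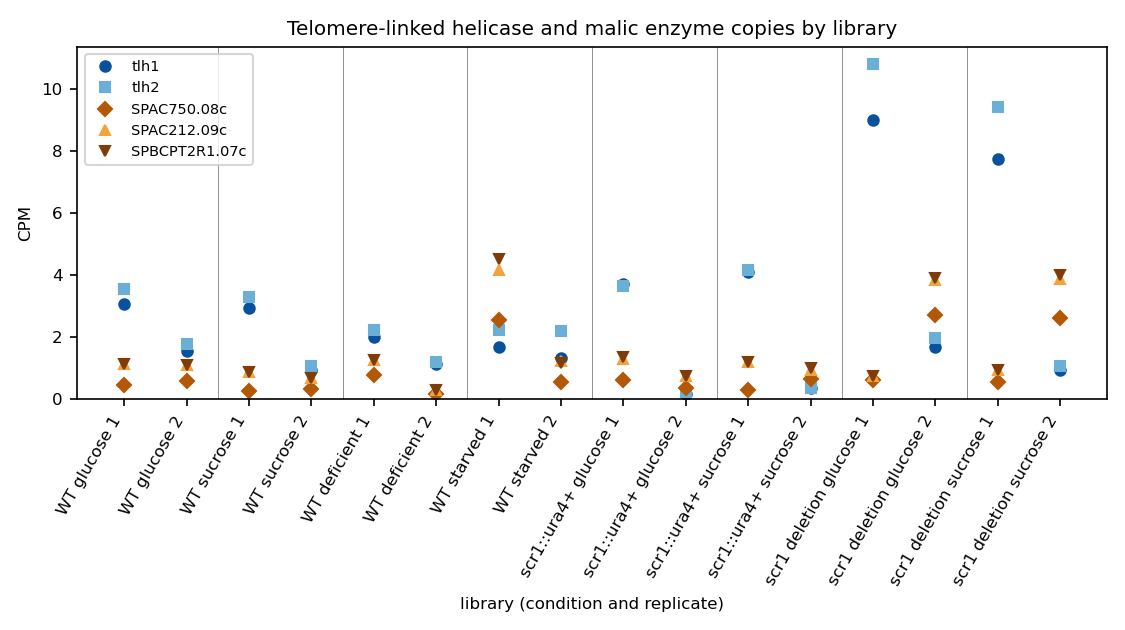
CPM of the helicase genes tlh1 and tlh2 and of 3 malic enzyme copies (SPAC750.08c and the pseudogenes SPAC212.09c and SPBCPT2R1.07c) in the 16 libraries. The tlh genes reach 7.74 to 10.8 CPM in the 2 libraries of deletion replicate 1 (strain D163), and the malic enzyme copies reach 2.61 to 3.98 CPM in those of replicate 2 (strain D165).

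A log2 gap above 2 between deletion replicates was found for 4 subtelomeric genes in glucose (6.15%) and 7 in sucrose (10.8%), against 0.0593% of other protein-coding genes in each medium. Those in glucose were tlh1 with its copy tlh2, and SPAC212.09c with its copy SPBCPT2R1.07c. Copies share reads, so these genes are not independent, and the part of low counts in the gaps was not tested. A term for strain, added to the model after these values had been seen, called 0 subtelomeric genes and 0 of 6691 features. At an unadjusted p under 0.05 there were 12 subtelomeric genes, with no background given for that limit. The smallest adjusted p was 0.238, shared by SPAC212.09c (2.21, SE 0.30) and SPBCPT2R1.07c. Between the scr1 deletion and the scr1::ura4+ libraries edgeR called 0 of 65 genes, against 1.72% of all features, and DESeq2 called 2. An unadjusted p under 0.05 was found for 13, again with no background given. This comparison leans on the batch term, because the deletion libraries all belong to batch C. Batch C is tied to the others through the deficient and starved replicates alone. With stranded libraries alone the tie is the starved pair, and 16 genes were called, the Vel1p genes and the L-asparaginases among them. The share of all features called in that setting is not given, so the 16 cannot be read as particular to the subtelomeric genes.

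The rise in starved cells was not limited to the genes next to the ends. In steps of 15 kb from the end, 6 of 14, 9 of 18, 15 of 20 and 6 of 13 tested genes were higher. In the same steps 0, 1, 0 and 4 were lower. Among protein-coding genes between 60 and 90 kb, 22 of 33 (66.7%) were higher and 6 (18.2%) were lower. Between 90 and 120 kb, 5 of 43 (11.6%) were higher and 14 (32.6%) were lower, against 20.7% and 20% of all tested features. The median log2 fold changes in these bands were 2.155 and -0.22. The median glucose level was 2.78 CPM per kb from 60 to 90 kb and 20.2 CPM per kb from 90 to 120 kb. At the limit itself, eno102 at 58.1 kb had a log2 fold change of 5.59, and SPBPB21E7.02c at 60.6 kb on the same arm had 4.60. The other arms did not show this. On the left of chromosome I, SPAC977.13c inside the limit had 3.05 and SPAC977.14c outside it had -0.90. On the right of chromosome II, tgd1 inside had 4.19 and pan5 outside had -1.47. On the right of chromosome I, yhb1 outside had -0.95, and the gene inside was not tested. By arm, 11 of 22 tested genes rose on the left and 9 of 14 on the right of chromosome I, and 7 of 17 and 9 of 12 on chromosome II.

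**Figure D5:**
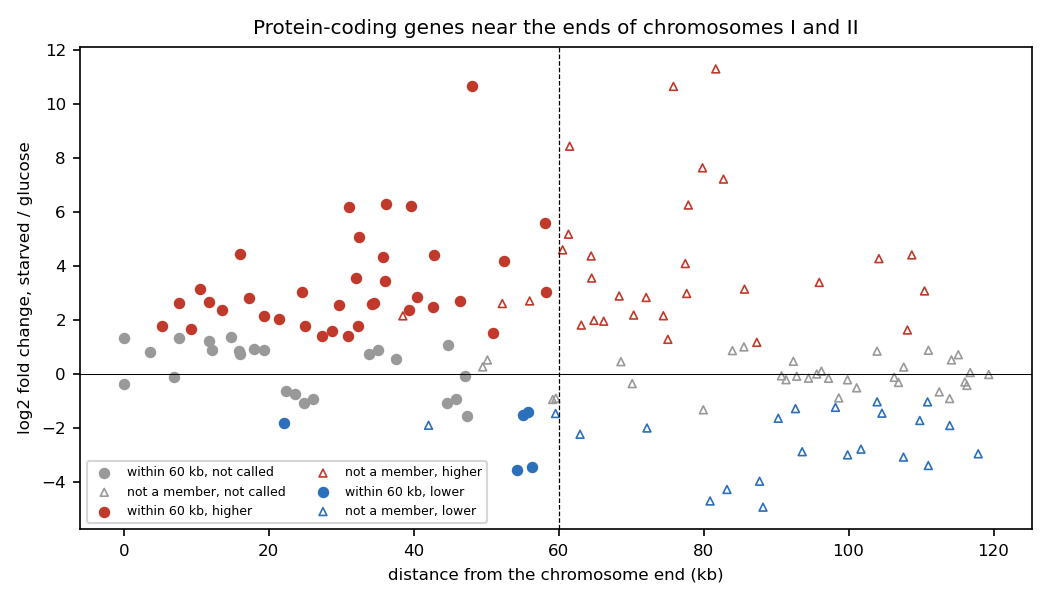
Log2 fold change between glucose-starved and glucose wild type cells against distance from the chromosome end, for tested protein-coding genes of chromosomes I and II. Filled circles are the subtelomeric genes and open triangles other genes, red when higher and blue when lower by the test; red points continue to about 90 kb, where 22 of 33 genes between 60 and 90 kb were higher.

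Factors of heterochromatin and telomeres were read from the same libraries. Of 27 such genes, 8 were lower and 1 was higher in starved than in glucose cells (29.6% lower against 20% of all tested features, and 3.70% higher against 20.7%), with a median log2 fold change of -0.42. Those that fell were chp2 (-2.76), abp2 (-1.89), rif1 (-1.82), pot1 (-1.80), tas3 (-1.67), rik1 (-1.35), tpz1 (-1.23) and chp1 (-1.06). Chp2 binds methylated histone H3, Rik1 belongs to the Clr4 complex, Tas3 and Chp1 to the RNA interference complex, and Pot1 and Tpz1 cap the telomere. The gene that rose was rap1 (1.81, SE 0.25, adjusted p = 6.8e-05 by edgeR), which encodes a telomere-binding protein. In the glucose-deficient condition 1 of the 27 was lower, abp2 (3.70% against 3.71% of all tested features). In libraries labelled scr1 mutant abp2 was lower in both media (-2.26 in glucose). It was the 1 gene of the 27 called there (3.70%), against 1.84% in glucose and 1.57% in sucrose of all tested features in either direction. Whether these levels bear on the subtelomeric genes was not tested.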

How the data were processed

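The authors' deposited table holds whole-number counts of reads per feature. By the study's methods and the submitters' processing notes, reads were called with CASAVA 1.8.4, trimmed with cutadapt 1.9.1, aligned with TopHat2 2.1.1 to ASM294v2 and counted with featureCounts 1.5.2, so that a read mapping to several places, or over overlapping features, was counted for each, and strand was used in the stranded libraries. Copies of a gene thus share reads. All value columns were matched to samples (0 left unmapped).

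Genes were chosen by position, and the members and gene lists were chosen with earlier results of these data known. Named genes were those with a symbol, in a listed family or among the 10 largest called rises or falls of a comparison. SPBC1348.12, SPAC212.09c, SPBCPT2R1.07c, SPAC750.03c and SPBC1348.04 are named beside these, chosen after their values were seen. Shared sequence was measured in RefSeq ASM294v3, where all 77 genes matched by systematic ID. Counts were analysed with edgeR 4.0.16 in R 4.3.3 (TMM, filterByExpr with a minimum count of 10, quasi-likelihood test, Benjamini-Hochberg adjustment over 6691 features). The model had 6 groups, with both kinds of scr1 mutant pooled per medium, and a batch term. The comparison of deletion with disruption used 8 groups. A gene was called at an adjusted p under 0.05 and a log2 fold change past 1. DESeq2 1.42.0 and the other alternatives are given in the closing section. The procedure was tested on simulated data. Within-batch and replicate differences used log2 CPM with a prior count of 2. Depth was 14305848 to 18607823 counts per library, and counting intervals cover counting error alone. A gene of the list of heterochromatin and telomere factors is not reported here.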

Additional observations from a re-analysis of the deposited data

Results flagged for a closer look

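In each group of 4 libraries labelled scr1 mutant in one medium, the library at the edge was compared with the others by Dixon's test at 95%. Of 130 sets (65 genes in 2 media), 13 (10%) held a library set apart. Chance gives about 1 in 20 where the 4 libraries are alike. These 4 differ in batch and in the kind of mutant, so the 10% cannot be read as an excess over chance. Many of these are at the level of a few reads, and several come from copies that share reads.

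In glucose the unstranded scr1::ura4+ library (replicate 1) was the highest for the pyruvate decarboxylase gene pdc102 at 2.59 CPM, for the methyltransferase copies SPAC750.03c at 2.001 CPM and SPBC1348.04 at 3.77 CPM, and for tgd1 at 68.3 CPM, where the other 3 libraries had at most 0.131, 0.0694, 0.139 and 5.35 CPM. The same library was the lowest for the DUF999 gene SPBPB2B2.14c, at 0.118 CPM against 0.786 to 0.903 CPM. It is the 1 unstranded library of the 4, and the part of strand or batch in these values was not tested.

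In sucrose the unstranded scr1::ura4+ library was the lowest for fex1 at 76.1 CPM and for fex2 at 75.8 CPM, with 108 to 115.5 CPM for fex1 in the others, and the highest for SPBC1348.06c at 0.432 CPM. The stranded scr1::ura4+ library was the lowest for SPBC1348.12 at 3.37 CPM and the highest for SPBCPT2R1.04c at 44.5 CPM. Among the deletion libraries, strain D163 was the lowest for SPBC1348.09 at 0.067 CPM. Strain D165 was the highest for the transporter copy SPBC1348.05 at 2.35 CPM and the malic enzyme pseudogene copy SPBCPT2R1.07c at 3.98 CPM.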

How the results depend on the processing

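Between the starved and glucose conditions 25 to 43 genes were higher and 4 to 8 were lower when any 1 library was left out, and between starved and deficient 22 to 45 and 2 to 4. For the deficient condition against glucose the ranges were 1 to 6 higher and 0 to 9 lower. The scr1 comparisons gave 0 to 3 calls in glucose and 0 to 1 in sucrose, and deletion against disruption 0 to 13. Taking genes with little shared sequence alone, higher and lower counts were 9 and 0 (starved against glucose), 9 and 1 (starved against deficient) and 0 lower in the deficient condition. With each copy group taken once, chosen after the data were seen, starved against glucose gave 20 and 3, and starved against deficient 19 higher. In the deficient condition DESeq2 gave 2 lower, no batch term 2 higher and 1 lower, wild type libraries alone 2 and 0, and stranded libraries alone 1 higher. With no fold change minimum 8 were lower there and 5 in starved against deficient, where stranded libraries alone gave 20 higher. In the scr1 comparisons DESeq2 called 1 gene in glucose, and the deletion alone as mutant called 1 in glucose and 1 in sucrose. Deletion against disruption gave 2 calls by DESeq2 and 16 with stranded libraries alone, where fewer libraries tie the batches. The share of all features called in these 2 settings is not given. SPAC977.05c had a log2 fold change of -0.0078 without starved replicate 1 and of 5.36 without starved replicate 2. Of 437 repeats of single-gene results, 408 kept their call. The cause of other changes was not tested.

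The labels number replicates 1 and 2 in every group without saying that a number marks a shared culture or day. Deviations of same-numbered libraries correlated at 0.97 between wild type glucose and sucrose, at 0.25 between glucose and starved and at -0.02 between wild type glucose and scr1 deletion glucose. A replicate block instead of the batch term left 2 higher and 2 lower genes in the deficient condition and moved no other count of calls by over 1.5 times. The 12 genes under the low-count minimum were not tested, and 3 reads correspond to 0.145 to 0.263 CPM.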
